A study of Homo sapiens with 9 samples.

Results

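The comparison described here set the RNA of VCaP cells transfected with siCDO1A, a small interfering RNA (siRNA) directed against CDO1, against that of VCaP cells transfected with a control siRNA (siCtrl). Its members are the 6 libraries of these 2 groups among the 9 libraries of the series, chosen by their labels, and the 15555 of 58735 genes of the count table that passed a filter on low counts. VCaP is a human prostate cancer cell line derived from a vertebral metastasis. All 9 samples were grown in medium with 2 nM DHT, the androgen dihydrotestosterone, and the study asked which genes and pathways move when CDO1 is reduced. The siCtrl group (genotype label WT) held 3 samples, the siCDO1A group (genotype label CDO1 knockdown) held 3 samples, and a further group of 3 samples received siCDO1C, an siRNA of another sequence against the same gene. The samples of a group carry the numbers 1 to 3 and a batch label with the same number, and both siRNA groups share the siCtrl samples. Each group rests on 1 cell line and on transient transfection, and the labels call the samples biological replicates, so the p-values measure the spread between such samples of a single line.

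CDO1 encodes cysteine dioxygenase, the iron enzyme that oxidizes cysteine to cysteine sulfinate and thereby feeds the synthesis of taurine and sulfate. An siRNA guide strand loaded into an Argonaute protein cleaves the messenger RNA to which it is fully complementary. The same guide can also lower other messengers that match only its seed, the bases next to its 5′ end, mostly through sites in their 3′ untranslated regions (3′ UTRs), which is why studies commonly use more than 1 siRNA per gene.

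The libraries held 12061295 to 16073698 counts. Levels are given in CPM, counts scaled to a common library total and corrected by TMM factors, in the order of replicates 1, 2 and 3, and a gene was called when the adjusted p of edgeR's quasi-likelihood test was at most 0.05. The spread between replicates, as a common biological coefficient of variation, was 5.30% for siCtrl, 7.09% for siCDO1A and 10.8% for siCDO1C. In a principal component analysis of the 6 libraries compared, PC1 held 54.6% of the variance and separated the siCDO1A libraries (7.92 to 14.2) from the siCtrl libraries (-13.2 to -9.71). siCDO1A replicate 3 stood apart on PC2 (13.1, against -4.65 and -4.48 for siCDO1A replicates 1 and 2). All 12 luminal prostate markers were tested and their summed level, in CPM without TMM factors, was 7368 to 7472 in siCtrl and 8224 to 8493 in siCDO1A. Of the basal, fibroblast, endothelial and leukocyte marker lists, 1 of 5, 2 of 8, 2 of 6 and 1 of 8 genes passed the filter, and COL1A2, THY1, CDH5, CD3D, MS4A1 and FCGR3A were among those at 0 in every library. The summed levels in siCtrl and siCDO1A were 1.74 to 1.96 and 2.89 to 3.85 CPM for basal, 18.1 to 22.4 and 20.02 to 23.0 CPM for fibroblast, 0.876 to 3.46 and 2.43 to 3.58 CPM for endothelial and 2.07 to 2.74 and 1.87 to 4.60 CPM for leukocyte markers.

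CDO1 itself was reduced in every siCDO1A library. Its level was 14.2, 14.1 and 13.6 CPM in siCtrl and 3.28, 2.05 and 2.18 CPM in siCDO1A, from 177 to 220 counts in the former and from 30 to 40 counts in the latter. The groups did not overlap, the mean reduction was 82.1% ± 4.83 (SD, n = 3), and the log2 fold change was -2.50 ± 0.17 (SE, adjusted p = 3.0e-09). An exact two-sided permutation test of the 6 values gave p = 0.1, the smallest that 3 against 3 samples allow. In siCDO1C the level was 1.09, 2.81 and 1.15 CPM, and the direct difference between siCDO1A and siCDO1C was 0.56 on the log2 scale (adjusted p = 0.826), so a difference in depth of knockdown between the siRNAs was not shown. In bulk RNA, fewer cells holding a transcript and less of it per cell cannot be told apart, here and for every gene below.

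Across all genes many transcripts differed by small amounts between siCDO1A and siCtrl. Each change is relative to the control siRNA, so changes made by siCDO1A and by siCtrl cannot be told apart. Of the 15555 genes tested 2309 (14.8%) were called, 1146 higher (7.37%) and 1163 lower (7.48%), and the median absolute log2 fold change was 0.35 for the genes called higher and 0.35 for those called lower. Only 57 of the higher and 43 of the lower genes changed by more than 1 on the log2 scale, while 859 and 871 changed by less than 0.5. The plot of fold change by level shows that genes with few counts had to change more to be called. Called genes were mostly protein-coding, 91.5% of the higher and 95.0% of the lower against 84.1% of all tested. For 4764 genes (30.6% of those tested) the 3 siCDO1A libraries lay beyond all 3 siCtrl libraries, and 1087 of the 1146 higher and 1123 of the 1163 lower genes were among them.

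**Figure D1:**
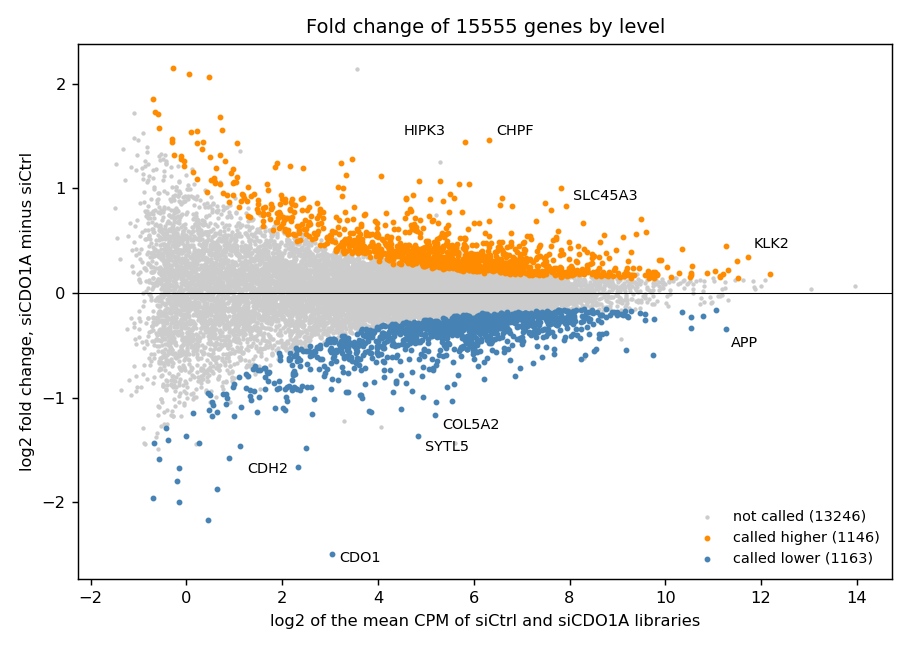
Log2 fold change of siCDO1A minus siCtrl for each of the 15555 genes tested, against the log2 of its mean CPM over the 6 libraries, with the 1146 genes called higher in orange, the 1163 called lower in blue and the other genes in grey. CDO1 (log2 fold change -2.50) has the largest fall of the called genes, and most called genes lie within 0.5 of the line at 0.

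The number of calls depended on single libraries and on whether the fit held the batch number as a block. With the batch number as a block 1358 genes were called, 652 higher and 706 lower. Without siCDO1A replicate 3, the library apart on PC2, 3454 genes were called. Without siCDO1A replicate 1 there were 1418, without siCDO1A replicate 2 1336, without siCtrl replicate 1 1348 and without siCtrl replicate 2 1292. The 151 genes that a fixed rule selected to be named kept their direction in every one of these runs. The rule took genes called in the main fit of the same libraries, which nearly fixes this outcome. All 151 remained called without siCDO1A replicate 3, and 131 did with batch as a block. Each batch held 1 library per group, so a gene whose groups did not overlap had the same direction in every batch.

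The called genes also differed in base composition. The median GC content of the transcript was 54.3% for genes called higher, 43.9% for genes called lower and 48.7% for all tested, and the median 3′ UTR length was 970, 2434 and 1347 bases. When the genes were divided into 4 equal bins by GC content, 15.1% of the highest bin were called higher and 3.19% lower, against 5.92% higher and 14.1% lower in the lowest bin. This moved with the libraries: the median log2 level of the highest bin against the siCtrl mean was 0.13 in siCDO1A replicates 1 and 2 but -0.01 in replicate 3, and within siCtrl it ran from -0.04 to 0.07. With offsets for GC content and length 3379 genes were called, 2117 of them among the 2309, and 146 of the 151 named genes stayed called. With the batch block added to these offsets 3197 genes were called. The part of base composition in single calls was otherwise not tested.

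**Figure D2:**
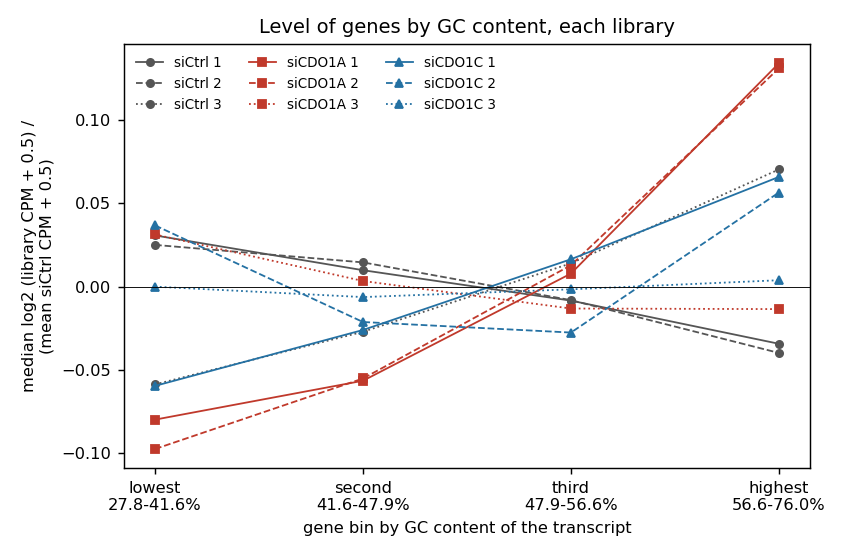
Median log2 ratio of each library's CPM to the mean siCtrl CPM (0.5 CPM added to both) for genes in 4 equal bins of transcript GC content, with grey circles for siCtrl, red squares for siCDO1A and blue triangles for siCDO1C. siCDO1A replicates 1 and 2 rise together from the lowest bin (-0.08 and -0.10) to the highest (0.13 in both), while siCDO1A replicate 3 goes from 0.03 to -0.01.

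The largest rises included a matrix enzyme, a matrix protein and kinase or receptor genes. That the siCDO1A and siCtrl libraries do not overlap was a condition of their choice. CHPF, the chondroitin polymerizing factor that helps to build chondroitin chains, was at 40.5, 43.2 and 42.97 CPM in siCtrl and 125, 118 and 106 CPM in siCDO1A. The siCDO1A libraries all lay above those of siCtrl, with a 2.75-fold higher level (log2 fold change 1.46 ± 0.07, adjusted p = 6.0e-11). HIPK3, a serine/threonine kinase of the nucleus, went from 31.6, 31.8 and 28.1 CPM to 78.9, 72.4 and 96.5 CPM (1.44 ± 0.09, adjusted p = 3.0e-09), with siCDO1A replicate 3 the highest library. ELN, which encodes elastin, went from 5.83, 6.99 and 6.45 CPM to 16.9, 17.4 and 12.9 CPM (1.28 ± 0.14, adjusted p = 2.7e-06). F2R, the thrombin receptor PAR1, was at 23.96, 26.9 and 25.7 CPM in siCtrl and 52.00, 50.1 and 58.1 CPM in siCDO1A (1.07 ± 0.08, adjusted p = 3.3e-08), again without overlap. YWHAH, a 14-3-3 adaptor protein, went from 39.1, 39.6 and 38.1 CPM to 78.9, 84.2 and 77.6 CPM (1.04 ± 0.07), and EMP2, a small membrane protein of epithelia, from 35.5, 33.7 and 32.7 CPM to 70.4, 67.4 and 71.6 CPM (1.04 ± 0.07). For both, each siCDO1A library was above every siCtrl library. EDA, a ligand of the TNF family, rose by 1.12 and ELAVL2, a neuronal RNA-binding protein, by 1.12 on the log2 scale. TBC1D10C, a Rab GTPase-activating protein, CFAP69, a protein of cilia and flagella, and SH2D5, an SH2-domain protein, were at 1.61 to 2.86 CPM in the siCtrl libraries and rose by 1.25, 1.21 and 1.20.

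The largest falls, after CDO1, were led by genes of the cell surface, the matrix and secreted proteins. Here too the lack of overlap with siCtrl was a condition of the choice. CDH2, N-cadherin, was at 8.09, 8.90 and 5.95 CPM in siCtrl and 2.62, 2.25 and 2.31 CPM in siCDO1A (-1.67 ± 0.20, adjusted p = 7.3e-06). The groups stayed apart although the siCtrl libraries themselves varied. KRT80, a type II keratin, went from 8.79, 7.87 and 8.49 CPM to 2.78, 2.60 and 3.56 CPM (-1.48 ± 0.17, adjusted p = 5.7e-06). SYTL5, a synaptotagmin-like effector of RAB27 in vesicle traffic, went from 42.6, 39.5 and 40.9 CPM to 14.7, 14.2 and 18.5 CPM (-1.37 ± 0.10, adjusted p = 9.6e-09). COL5A2, a chain of type V collagen, was at 50.3, 45.5 and 56.2 CPM in siCtrl and 20.6, 24.2 and 23.03 CPM in siCDO1A (-1.16 ± 0.09, adjusted p = 3.4e-08), and none of the siCDO1A libraries reached the lowest siCtrl library. TNFSF15, the TNF-family ligand TL1A, fell from 50.3, 52.8 and 46.1 CPM to 22.7, 25.8 and 23.8 CPM (-1.04 ± 0.09). Among secreted proteins VTN, vitronectin, fell by 1.13 and HABP2, a serine protease that binds hyaluronan, fell by 1.11 on the log2 scale. ABCC3, an efflux transporter, fell by 1.15, SPTSSB, a small subunit of serine palmitoyltransferase, fell by 1.13, CDH13, T-cadherin, fell by 1.12, and CALHM4 fell by 1.10. CDH13 and CALHM4 were low, with siCtrl means of 5.70 and 5.53 CPM and an SE of 0.21 and 0.20.

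Most of these large changes were also present with siCDO1C, against the same siCtrl libraries. Of the 12 rises, CFAP69 (0.68, adjusted p = 0.0727) and SH2D5 (0.47, adjusted p = 0.308) were not called with siCDO1C, and of the 12 falls only CDH13 (-0.68, adjusted p = 0.14) was not. None of the 24 was called in the direct comparison of siCDO1A with siCDO1C, where 69 genes (0.444%) were called in all. The smallest adjusted p among them there was 0.125, for F2R, which was at 70.7, 67.1 and 67.6 CPM in siCDO1C.

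**Figure D3:**
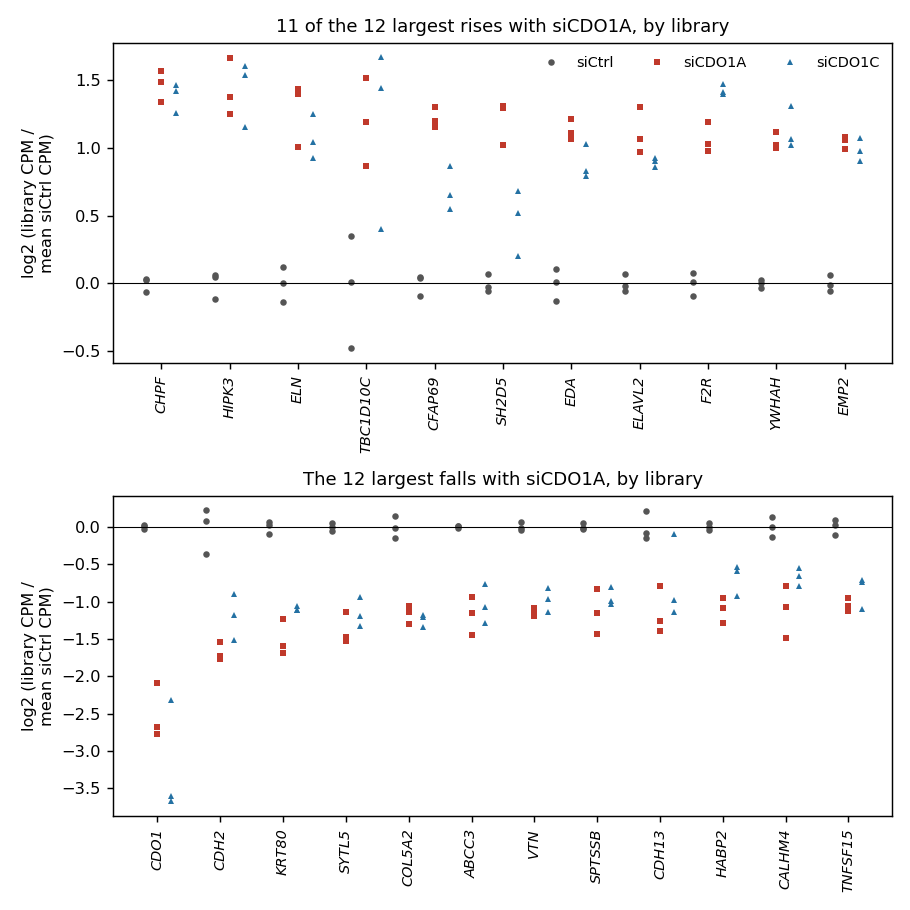
Log2 ratio of each library's CPM to the mean siCtrl CPM for 11 of the 12 largest rises (top) and the 12 largest falls (bottom) with siCDO1A among called protein-coding genes of at least 5 CPM in siCtrl or siCDO1A, with grey circles for siCtrl, red squares for siCDO1A and blue triangles for siCDO1C, 3 libraries each. No siCDO1A library overlaps siCtrl, which is part of the rule that chose these genes, and for most of them the siCDO1C libraries lie on the same side of the line.

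The most abundant called genes changed little. Among the 5 highest that rose were KLK2, an androgen-induced protease of the prostate, at 2872, 2995 and 3087 CPM in siCtrl and 3799.9, 3963 and 3575 CPM in siCDO1A (0.34 ± 0.05, adjusted p = 5.6e-05), and SPON2, a secreted matrix protein (0.31, adjusted p = 0.0011). SCD, the stearoyl-CoA desaturase, rose by 0.22 (adjusted p = 0.00555). RPL13A (0.18) and RACK1 (0.14), both ribosome-associated, were not called with batch as a block (adjusted p = 0.0828 and 0.154), and the RPL13A libraries overlapped. Among the 5 highest that fell were APP, the amyloid precursor protein, at 2739, 2706 and 2793 CPM in siCtrl and 2147, 2217 and 2137 CPM in siCDO1A (-0.34 ± 0.04, adjusted p = 2.1e-05), and ITM2A, a membrane protein (-0.34, adjusted p = 3.2e-05). The other 3 were the endoplasmic reticulum (ER) chaperones HSPA5, CALR and CANX.

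Genes of protein folding in the ER fell more often than they rose. Of 66 genes tested 20 were lower, 4 were higher and 42 were not called. The median log2 fold change was -0.10 against 0.01 over all genes. The share called was 36.4%. For this and the lists below, the shares of all genes were 14.8% called, 7.37% higher and 7.48% lower. With siCDO1C against the same controls 20 were lower and 3 higher, with a median of -0.23. None of the 66 was called in the direct comparison. HERPUD1, which serves ER-associated degradation, was at 132, 129 and 133 CPM in siCtrl and 93.03, 91.7 and 93.6 CPM in siCDO1A (-0.50 ± 0.06, adjusted p = 5.0e-06), with no overlap. PDIA6, a protein disulfide isomerase, fell by 0.43 and SEC24D, a cargo adaptor of the COPII coat, by 0.54 on the log2 scale. HSPA5, the chaperone BiP, went from 1579.7, 1592 and 1607 CPM to 1393, 1367 and 1315 CPM (-0.23 ± 0.05, adjusted p = 0.00173). CALR, calreticulin, fell by 0.22 (adjusted p = 0.00475), while CANX, calnexin, overlapped between the groups and was not called with batch as a block (-0.17, adjusted p = 0.118). The 4 that rose were all genes of protein traffic out of or into the ER, led by SAR1B, the GTPase that starts COPII coat assembly, which went from 36.02, 31.5 and 32.2 CPM to 61.99, 59.4 and 65.4 CPM (0.91 ± 0.08, adjusted p = 1.2e-07). The other 3 were SEC24A, SEC63 and SEC24B, the last not called with batch as a block (adjusted p = 0.0672). With batch as a block 11 fell and 3 rose, and the number of falls was 10 to 12 when siCtrl replicate 1 or 2 or siCDO1A replicate 1 or 2 was left out and 26 without siCDO1A replicate 3.

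The targets of ATF6 and XBP1, the transcription factors that induce ER chaperones in the unfolded protein response, contained falls and no called rise. Of 30 tested, 18 of which are also in the folding list, 14 were lower, 0 were higher and 16 were not called. The share called was 46.7%, and the median log2 fold change was -0.19. DNAJB9 (-0.74, adjusted p = 1.1e-04) and DNAJC3 (-0.53, adjusted p = 4.5e-05), co-chaperones of HSPA5, fell with HERPUD1 and PDIA6. XBP1 itself went from 338, 345 and 359 CPM to 316, 305 and 289 CPM (-0.19, adjusted p = 0.016, but 0.0925 with batch as a block). CREB3L2, an ER-anchored transcription factor, went from 98.5, 96.5 and 89.3 CPM to 65.8, 67.02 and 75.9 CPM (-0.44, adjusted p = 1.9e-04) and stood at 42.7, 35.1 and 55.02 CPM in siCDO1C, a difference that was called in the direct comparison (0.66, adjusted p = 0.0393). The list median was -0.36 with siCDO1C against the same controls. With batch as a block 7 of the 30 fell, and 8 did without siCtrl replicate 2 or without siCDO1A replicate 2.

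ATF4 targets, which serve amino acid supply and stress, were called with siCDO1A about as often as all genes. Of 32 tested 4 were lower and 1 higher, a share of 15.6% against 14.8% of all genes. The list median was -0.05 with siCDO1A and -0.29 with siCDO1C. SLC7A11, the cystine importer, was at 43.5, 42.9 and 38.4 CPM in siCtrl, 24.2, 23.3 and 27.98 CPM in siCDO1A and 14.8, 12.3 and 16.3 CPM in siCDO1C. It fell by 0.72 with siCDO1A (adjusted p = 1.5e-05), less than with siCDO1C (direct difference 0.80, adjusted p = 0.0043). ATF4 fell by 0.18 (adjusted p = 0.0275, but 0.122 with batch as a block), PPP1R15A, a phosphatase subunit that reverses the stress block of translation, fell by 0.45, and CEBPB, another bZIP factor, was higher by 0.33 (adjusted p = 0.0323, but 0.0744 with batch as a block).

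In the list of NRF2 targets, glutathione and thioredoxin genes 6 of 39 were lower and 2 higher, with a median of 0.02 that changed sign under some settings. The number higher was 7 without siCDO1A replicate 3 and 1 without siCtrl replicate 2 or 3. The lower genes were SLC7A11, PRDX1, a peroxiredoxin (-0.64, adjusted p = 2.9e-06), TXNRD1, thioredoxin reductase (-0.38, adjusted p = 3.3e-05), GPX2, a glutathione peroxidase (-0.91, adjusted p = 0.00192), GCLC and ME1. GSR, glutathione reductase, was at 80.05, 85.05 and 74.5 CPM in siCtrl, 69.4, 71.9 and 77.8 CPM in siCDO1A and 33.6, 43.3 and 37.1 CPM in siCDO1C, so its siCDO1A and siCtrl libraries overlapped and the direct difference of siCDO1A from siCDO1C was 0.95 (adjusted p = 1.5e-04). Of 24 genes of cysteine and taurine metabolism other than CDO1 itself, 2 were higher (OPLAH 0.34 and MAT2A 0.20) and 1 was lower (GGT1 -0.34), a share of 12.5% against 14.8% of all genes, and MAT2A was not called with batch as a block (adjusted p = 0.0937). This list gave 0 calls without siCtrl replicate 1, and 6 higher and 1 lower without siCDO1A replicate 3.

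Genes of DNA replication were called higher more often than lower, and 47.2% of them were called. Of 53 tested 24 were higher, 28 were not called and 1 lower (RFC1, -0.19, not called with batch as a block, adjusted p = 0.154), with a median log2 fold change of 0.21. MCM4, a subunit of the replicative helicase, was at 318, 308 and 304 CPM in siCtrl and 412, 387 and 409 CPM in siCDO1A (0.38 ± 0.05, adjusted p = 3.0e-05). MCM5 rose by 0.37, and MCM2, MCM6 and MCM7 were also called higher, as was MCM3, but not with batch as a block (adjusted p = 0.0902). POLD3 (0.61 ± 0.09) and POLD1 (0.44 ± 0.08), subunits of DNA polymerase delta, rose as well. The list median was 0.21 with siCDO1C too, and no member was called in the direct comparison. With batch as a block 13 were higher, and there were 11 without siCtrl replicate 2 and 15 without siCDO1A replicate 1. In homologous recombination and Fanconi repair 4 of 29 were higher (EXO1, FANCD2, BLM and FANCC) and 0 lower. The share called was 13.8%, against 14.8% called and 7.37% called higher among all genes. Of the 4, EXO1 alone stayed called with batch as a block. The list gave 1 call without siCtrl replicate 1 and 2 without siCtrl replicate 2 or siCDO1A replicate 1. Mitosis and spindle genes were mixed, with 3 of 40 higher and 6 lower: CDCA8, a subunit of the chromosomal passenger complex, fell by 0.53 (adjusted p = 3.3e-05) and HMMR by 0.38, while the mitotic kinesins KIF20A and KIF11 rose by 0.26 and 0.29. The number lower was 2 or 3 without siCtrl replicate 1 or 2 or siCDO1A replicate 1, 12 without siCDO1A replicate 3 and 2 with batch as a block.

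Among genes of the ribosome, of its assembly and of the respiratory chain the calls were rises by small amounts, and most members were not called. The share called was 33.3% for ribosomal proteins, 25.6% for ribosome biogenesis, 26.0% for the respiratory chain and 25% for splicing factors. Of all genes 14.8% were called. Of 78 cytosolic ribosomal protein genes 26 were higher, 0 lower and 52 not called, with a median of 0.13, and RPS19 went from 1422, 1363 and 1365 CPM to 1647, 1792 and 1508 CPM (0.25 ± 0.06, adjusted p = 0.00345). RPL28, RPS24 and RPS28 rose by 0.25, 0.24 and 0.24, and these genes have processed pseudogenes with which reads can be shared. The count was unstable: 4 were higher with batch as a block, 3 to 8 when siCtrl replicate 1 or 2 or siCDO1A replicate 1 or 2 was left out and 59 without siCDO1A replicate 3. Of 39 ribosome biogenesis genes 10 were higher, 0 lower and 29 not called (median 0.13), led by NOP56, a box C/D snoRNP protein (0.32, adjusted p = 2.5e-04), MYBBP1A (0.33), BOP1 (0.34) and POLR1A, the largest subunit of RNA polymerase I (0.30), and 6 were higher without siCDO1A replicate 1 or without replicate 2. Of 73 nuclear genes of respiratory chain subunits 19 were higher, 0 lower and 54 not called (median 0.15), among them NDUFA5 (0.39, adjusted p = 2.8e-04), ATP5F1D (0.42), UQCRFS1 (0.27) and COX5A (0.25). With batch as a block 8 of these were higher, 6 or 7 when siCtrl replicate 1 or 2 or siCDO1A replicate 1 or 2 was left out and 32 without siCDO1A replicate 3. Of the 13 protein-coding genes of the mitochondrial genome only MT-ND3 was called (0.19, and not with batch as a block, adjusted p = 0.105). Of 40 splicing factor genes 10 were higher and 0 lower (median 0.11), among them SF3B3 (0.36, adjusted p = 6.5e-05) and U2AF2 (0.24), with 3 higher with batch as a block and 2 to 5 when siCtrl replicate 1 or 2 or siCDO1A replicate 1 or 2 was left out. In each of these lists other than that of the mitochondrial genome the median stayed above 0 under every setting, offsets for GC content and length included, and none of their members was called in the direct comparison with siCDO1C.

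**Figure D4:**
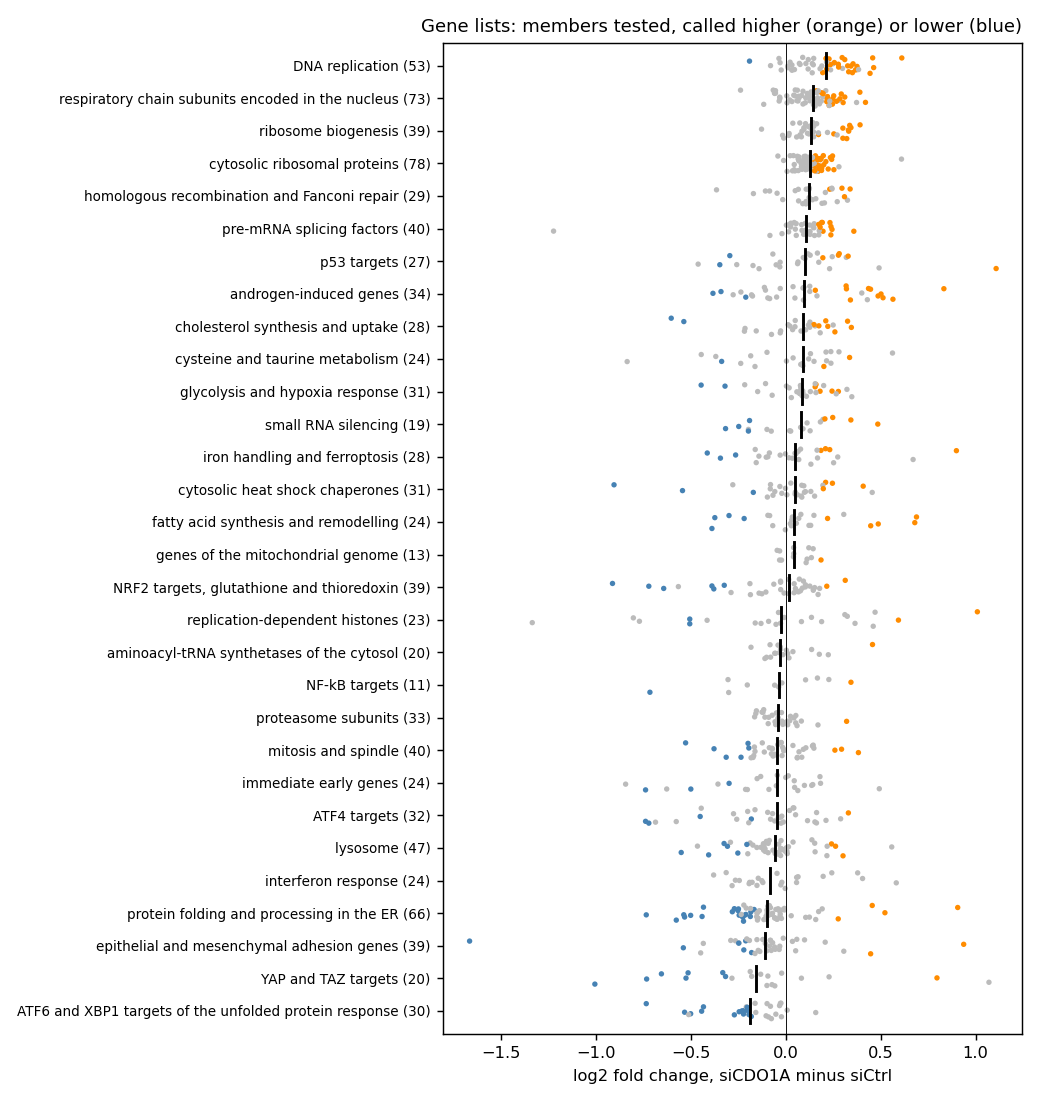
Log2 fold change of siCDO1A minus siCtrl for the tested members of 30 gene lists, ordered by the list median (black bar), with members called higher in orange, called lower in blue and not called in grey, and the number of members tested in parentheses. DNA replication has the highest median (0.21) and the ATF6 and XBP1 targets the lowest (-0.19), and most of the points lie within 0.5 of the line at 0.

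Androgen-induced genes were more often higher than lower. Of 34 tested 11 were higher and 3 lower (ELL2, KLK3 and HERC3), with a median of 0.09. The share called was 41.2%, against 14.8% of all genes. With siCDO1C the median was 0.10, with 3 called higher and 3 lower. Only 2 members, SLC45A3 and PMEPA1, were called in the direct comparison, where the list median was 0.03. HERC3 was not called with batch as a block (adjusted p = 0.157). SLC45A3, the prostate membrane protein prostein, was at 176, 165 and 180.4 CPM in siCtrl and 328, 300.1 and 303 CPM in siCDO1A (0.83 ± 0.06, adjusted p = 3.0e-09), and its siCDO1C libraries at 219, 223 and 237 CPM lay between them. PMEPA1, an androgen-induced inhibitor of TGF-beta signalling, went from 542, 527 and 555 CPM to 805, 779 and 818 CPM (0.56 ± 0.05, adjusted p = 8.8e-08), with siCDO1C at 618, 627 and 647 CPM. STEAP1, a metalloreductase of the cell surface, rose by 0.51 and PLPP1, a lipid phosphatase, by 0.49, and KLK2 and KLK4 (0.32) were also higher. KLK3 went the other way, from 36.1, 38.8 and 46.00 CPM to 29.6, 31.02 and 32.3 CPM (-0.38 ± 0.09, adjusted p = 0.00741), without overlap.

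Lipid genes moved both ways. The share called was 32.1% of the cholesterol genes and 37.5% of the fatty acid genes, against 14.8% of all genes. Of 28 genes of cholesterol synthesis and uptake 7 were higher, all enzymes of the pathway (MVK 0.35, EBP 0.33, and DHCR7, FDPS, LSS, MSMO1 and SQLE between 0.15 and 0.26), and the 2 lower were INSIG1 and INSIG2, which retain the SREBP activator SCAP in the ER. INSIG1 went from 452, 443 and 432 CPM to 319.9, 309 and 286 CPM (-0.54 ± 0.05, adjusted p = 6.3e-07) and INSIG2 from 63.1, 68.5 and 60.8 CPM to 39.1, 46.7 and 40.4 CPM (-0.60 ± 0.08, adjusted p = 2.9e-05). The list median was 0.09 with siCDO1A and -0.13 with siCDO1C, and no member was called in the direct comparison. With batch as a block 2 were higher (MVK and EBP) and 2 lower (INSIG1 and INSIG2), and 3 or 4 were higher when siCtrl replicate 1 or 3 or siCDO1A replicate 1 or 2 was left out and 11 without siCDO1A replicate 3. Of 24 fatty acid genes 5 were higher and 4 lower (1 lower without siCtrl replicate 1 or siCDO1A replicate 2, 2 without siCtrl replicate 2 or with batch as a block): FASN, fatty acid synthase, went from 2161, 2016 and 2088 CPM to 2937, 2908 and 2698 CPM (0.45 ± 0.05, adjusted p = 2.0e-06), and the lipogenic transcription factor SREBF1 (0.49, adjusted p = 8.3e-06) and the elongase ELOVL7 (0.69) rose, while the elongase ELOVL2 fell by 0.37.

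Targets of YAP and TAZ, the effectors of the Hippo pathway, and adhesion genes contained falls. The share called was 40% and 20.5% in this order, against 14.8% of all genes. Of 20 YAP and TAZ targets 7 were lower and 1 higher (median -0.16): MYOF, myoferlin (-1.01, adjusted p = 3.3e-05), AJUBA (-0.66, adjusted p = 2.6e-04), IGFBP3 (-0.51, adjusted p = 2.1e-06), the CCN family gene CYR61 (-0.53), LATS2, PTPN14 and NT5E (adjusted p = 0.0623 with batch as a block), against a rise of 0.80 for TGFB2, and 4 were lower without siCtrl replicate 2. Of 39 epithelial and mesenchymal adhesion genes 6 were lower and 2 higher. Beside CDH2, THBS1, thrombospondin 1, fell by 0.54 (adjusted p = 2.5e-07), while ALCAM, an adhesion molecule of the immunoglobulin family, rose by 0.94 (adjusted p = 3.2e-07) and PKP3, a desmosomal plakophilin, by 0.45. With batch as a block 2 adhesion genes were lower and 2 higher, and the number lower was 2 or 3 without siCtrl replicate 1 or 2 or siCDO1A replicate 2 and 11 without siCDO1A replicate 3.

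The remaining lists held calls in both directions or few calls, beside 14.8% called of all genes. Higher and lower genes numbered 4 and 3 of 31 for cytosolic heat shock chaperones (CCT8 0.41, HSPB8 -0.90), 3 and 6 of 47 for the lysosome (ASAH1 -0.31, LIPA -0.41), 4 and 3 of 28 for iron handling and ferroptosis (the ferrireductase STEAP3 0.90), 5 and 2 of 31 for glycolysis and hypoxia (GPI 0.24, EGLN1 -0.32), 5 and 2 of 27 for p53 targets (SESN1 0.33, FAS -0.35) and 4 and 4 of 19 (42.1% called) for small RNA silencing. These counts moved with single libraries: small RNA silencing gave 1 and 0 without siCtrl replicate 1, 2 and 1 without siCDO1A replicate 1 or without siCDO1A replicate 2, and 2 and 1 with batch as a block. Glycolysis and hypoxia gave 1 higher with batch as a block and when siCtrl replicate 1 or 2 or siCDO1A replicate 1 or 2 was left out, and 8 without siCDO1A replicate 3. Iron handling gave 1 and 2 with batch as a block or without siCtrl replicate 2, p53 targets 3 and 1 with the block, and heat shock chaperones 2 and 2, and the lysosome 1 and 4. In small RNA silencing, AGO4, an Argonaute protein, rose by 0.48 (adjusted p = 0.00305) and DICER1, which cuts small RNA precursors, fell by 0.32 (adjusted p = 0.00584). Interferon response genes, which can react to foreign RNA, gave 0 calls among 24, with 2 at an unadjusted p under 0.05 and 0 calls by DESeq2. Proteasome subunits gave 1 call among 33 (PSMB5 0.32), cytosolic aminoacyl-tRNA synthetases 1 among 20 (VARS 0.46), NF-kB targets 1 in each direction among 11, immediate early genes 3 lower among 24 (0 without siCtrl replicate 1 and without siCDO1A replicate 1 or 2), and histone genes 2 in each direction among 23, whose reads can be split between near-identical copies.

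Transcription factors were counted by the classes of the deposited annotation, without a test between classes. Of 1146 tested 72 were higher (6.28%) and 68 lower (5.93%), against 7.37% and 7.48% of all genes. Among 39 bZIP factors 10 were lower, namely ATF4, XBP1, BACH1, CREB3L2, ATF5, CREB1, CREB3, FOSL2, CREB3L1 and ATF3, and 3 were higher, with a median log2 fold change of -0.12. Of the 10, ATF4, XBP1, ATF5, CREB1, CREB3, FOSL2 and ATF3 were not called with batch as a block (adjusted p between 0.0662 and 0.122). Of the 10 E2F family genes 4 were higher and 0 lower: E2F1 went from 85.5, 86.7 and 98.8 CPM to 112, 109 and 111 CPM (0.29 ± 0.07, adjusted p = 0.00455), and E2F2, E2F3 and E2F4 rose by 0.33, 0.19 and 0.29, but were not called with batch as a block (adjusted p = 0.0522, 0.146 and 0.0755). Of 54 bHLH factors 10 were lower, among them the inhibitors of differentiation ID1, ID2, ID3 and ID4, and 5 were higher. These families and genes were picked after their counts were seen.

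Markers of the line and of other cell types were read beside these changes. The share called was 58.3% of the luminal and 50% of the neuroendocrine markers, against 14.8% of all genes. Of the 12 luminal markers 4 were higher, among them SLC45A3, KLK2 and ERG, and 3 lower (FOLH1 -0.28, KLK3 -0.38 and KRT8 -0.19), with a median of 0.03, and ERG and KRT8 were not called with batch as a block (adjusted p = 0.0509 and 0.121). Of 8 neuroendocrine markers 2 were higher, among them CHGA (0.27), and 2 lower (NCAM1 -0.70 and CHGB -0.31), CHGA not with batch as a block (adjusted p = 0.0644), and their summed level was 355 to 359 CPM in siCtrl and 342 to 365 CPM in siCDO1A. KRT14, the only basal marker tested, was at 0.933, 1.43 and 1.18 CPM in siCtrl and 2.46, 3.14 and 2.24 CPM in siCDO1A (1.14 ± 0.29). COL1A1 was at 1.63, 3.02 and 2.54 CPM in siCtrl and 4.67, 3.35 and 4.22 CPM in siCDO1A, not called with batch as a block (adjusted p = 0.063). Both were low in every library, and their part in the other results was not tested.

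What siCDO1A changed and siCDO1C did not was asked first by counting calls. Of the 2309 called genes 1744 were not called with siCDO1C, where 742 genes (4.77%) passed against the same controls, 353 higher (2.27%) and 389 lower (2.5%). Side by side, and with shared siCtrl libraries and genes chosen by the siCDO1A change, the median log2 fold change of the 849 higher genes was 0.32 under siCDO1A beside 0.22 under siCDO1C, and that of the 895 lower genes was -0.33 beside -0.20. Only 40 of the 1744 were called in the direct comparison of siCDO1A with siCDO1C, and 336 had an unadjusted p under 0.05 there, so for the others a difference between the siRNAs was not shown. The count was 942 with batch as a block, 2881 without siCDO1A replicate 3, 878 without siCDO1A replicate 2, 945 without siCDO1A replicate 1, 1079 without siCtrl replicate 2 and 1128 without siCtrl replicate 1.

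Genes particular to siCDO1A were therefore taken as those called against siCtrl and called in the same direction against siCDO1C, which both use the siCDO1A libraries. There were 10 higher (0.0643% of the genes tested) and 34 lower (0.219%), and in all 44 each siCDO1A library lay beyond every siCtrl and every siCDO1C library, as did those of 833 genes in all (5.36% of those tested), which the choice by both comparisons nearly fixes. Of the 10 higher genes 2 were also called higher with siCDO1C (SLC45A3 and TMEFF2), and RTL8C and PAFAH1B2 were called in the opposite direction there. For the 34 lower genes the log2 fold change with siCDO1C ran from -0.24 to 0.31, and none was called lower with it. The counts rested on single libraries: 2 and 15 without siCDO1A replicate 3, 1 and 11 without siCDO1A replicate 1, 0 and 10 without siCDO1A replicate 2, 2 and 15 without siCDO1C replicate 1, 22 lower without siCDO1C replicate 3, and 57 and 148 without siCDO1C replicate 2. All 44 were among those found without siCDO1C replicate 2, and all but RTL8C and ANLN were found with batch as a block.

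The lower genes particular to siCDO1A came from many functions, and the siCDO1C libraries of most of them lay around the siCtrl line. PLEKHA3, an adaptor that binds phosphatidylinositol 4-phosphate at the Golgi (chr2:178480468-178516462, hg38), was at 25.6, 28.1 and 24.8 CPM in siCtrl, 15.2, 12.9 and 12.7 CPM in siCDO1A and 25.2, 29.2 and 24.96 CPM in siCDO1C. It was 1.93-fold lower with siCDO1A (-0.95 ± 0.10, adjusted p = 2.5e-06) and differed directly by -0.96 (adjusted p = 6.4e-04), while the siCDO1C and siCtrl libraries overlapped. GPR137B, a lysosomal membrane protein, was at 17.1, 17.3 and 17.1 CPM in siCtrl, 8.84, 8.68 and 10.6 CPM in siCDO1A and 20.1, 15.2 and 16.9 CPM in siCDO1C (direct difference -0.89, adjusted p = 0.00534). NOV, the matricellular protein CCN3, was at 38.6, 42.8 and 41.6 CPM in siCtrl, 19.2, 22.6 and 19.8 CPM in siCDO1A and 35.1, 35.1 and 36.6 CPM in siCDO1C (log2 fold change -0.99 ± 0.09, direct difference -0.79, adjusted p = 0.00118). MGAT4A, which branches N-glycans, showed 43.2, 35.7 and 36.95 CPM in siCtrl, 20.1, 21.1 and 25.3 CPM in siCDO1A and 38.6, 33.9 and 41.7 CPM in siCDO1C (direct difference -0.77, adjusted p = 0.00309). In each of these genes the 3 siCDO1A libraries lay below the other 6.

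Signalling and cytoskeletal genes had the same pattern. ILKAP, a phosphatase of integrin-linked kinase signalling, was at 28.6, 31.7 and 31.4 CPM in siCtrl, 19.3, 21.9 and 18.2 CPM in siCDO1A and 31.4, 40.6 and 29.6 CPM in siCDO1C (-0.63 ± 0.09, direct difference -0.77). RABGAP1, a Rab GTPase-activating protein, was at 153, 147 and 139 CPM in siCtrl, 82.6, 86.2 and 85.1 CPM in siCDO1A and 133, 121 and 148 CPM in siCDO1C (-0.79 ± 0.06, direct difference -0.66, adjusted p = 0.00127). TPM3, a tropomyosin, was at 179.9, 191 and 187 CPM in siCtrl, 118, 130.1 and 104 CPM in siCDO1A and 183, 196 and 175 CPM in siCDO1C (-0.67 ± 0.07, direct difference -0.65, adjusted p = 0.00195). MIGA1, which promotes mitochondrial fusion, fell by 0.90 against siCtrl and by 0.68 against siCDO1C, and PLK2, a polo-like kinase, fell by 0.60 and by 0.66. PAFAH1B2, a catalytic subunit of a platelet-activating factor acetylhydrolase, moved in opposite directions: it was at 143, 148 and 139 CPM in siCtrl, 109.9, 108 and 102 CPM in siCDO1A and 175, 182 and 176 CPM in siCDO1C. It fell by 0.43 with siCDO1A (adjusted p = 4.0e-05) and was higher by 0.31 with siCDO1C (adjusted p = 0.0178). YWHAZ, an abundant 14-3-3 protein, was at 1036, 1062 and 1005 CPM in siCtrl, 683, 679 and 695 CPM in siCDO1A and 907, 1028 and 958 CPM in siCDO1C (-0.59 ± 0.05, direct difference -0.49, adjusted p = 0.00534), while its relative YWHAH was among the largest rises with both siRNAs. The other 23 lower genes fell by 0.24 to 0.79 on the log2 scale against siCtrl, among them the receptors LIFR and BMPR1A, the cell cycle kinase CDK2, the complement regulator CD55, the V-ATPase accessory protein ATP6AP2, the SREBP protease MBTPS2, the hedgehog ligand IHH, PRDX1 and IGFBP3.

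The 10 genes higher with siCDO1A than with both other groups include SLC45A3 and PMEPA1 of the androgen-induced list. SLC45A3 differed directly by 0.46 (adjusted p = 0.0114) and PMEPA1 by 0.35 (adjusted p = 0.0496). TMEFF2, a membrane protein of brain and prostate, was at 33.2, 31.7 and 34.3 CPM in siCtrl, 58.1, 53.7 and 58.00 CPM in siCDO1A and 40.4, 41.2 and 43.2 CPM in siCDO1C (direct difference 0.45, adjusted p = 0.0291). NKILA, a long noncoding RNA (chr20:57710183-57712780), was at 5.06, 6.44 and 5.33 CPM in siCtrl, 13.5, 12.2 and 14.1 CPM in siCDO1A and 5.81, 6.53 and 9.14 CPM in siCDO1C (1.24 ± 0.14, direct difference 0.90, adjusted p = 0.0159). It overlaps PMEPA1 (chr20:57648392-57711536) on the other strand. The libraries were strand-specific, but the strand setting of the counting is not given in the sources used here, so reads of the overlap may have been counted for either gene. MDK, the heparin-binding growth factor midkine, was at 368, 372 and 397 CPM in siCtrl, 520.2, 529 and 435 CPM in siCDO1A and 279, 356 and 294 CPM in siCDO1C (0.38 ± 0.06, direct difference 0.68, adjusted p = 0.00309), with siCDO1A replicate 3 the lowest of its group. CPLX1, a complexin of vesicle fusion, was at 46.8, 46.5 and 49.8 CPM in siCtrl, 68.9, 65.2 and 62.02 CPM in siCDO1A and 45.7, 48.9 and 48.4 CPM in siCDO1C (direct difference 0.46, adjusted p = 0.0242), and here siCtrl and siCDO1C lay together. LETM1, a cation transporter of the inner mitochondrial membrane, differed directly by 0.47, SLC16A14, an orphan monocarboxylate transporter, by 0.65 and the ephrin receptor EPHA8 by 0.62 (adjusted p = 0.0496). Against siCtrl they rose by 0.25, 0.42 and 0.56 with siCDO1A. With siCDO1C the values were -0.21, -0.24 and -0.06, none of them called, and these are part of the direct differences. RTL8C, a gene derived from a retrotransposon, had the largest direct difference (0.99, adjusted p = 1.8e-04), at 35.5, 29.9 and 35.8 CPM in siCtrl, 42.6, 42.4 and 39.5 CPM in siCDO1A and 20.2, 24.1 and 18.6 CPM in siCDO1C. Its rise against siCtrl was not called with batch as a block (adjusted p = 0.0669), and it has near-identical copies with which reads can be shared.

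**Figure D5:**
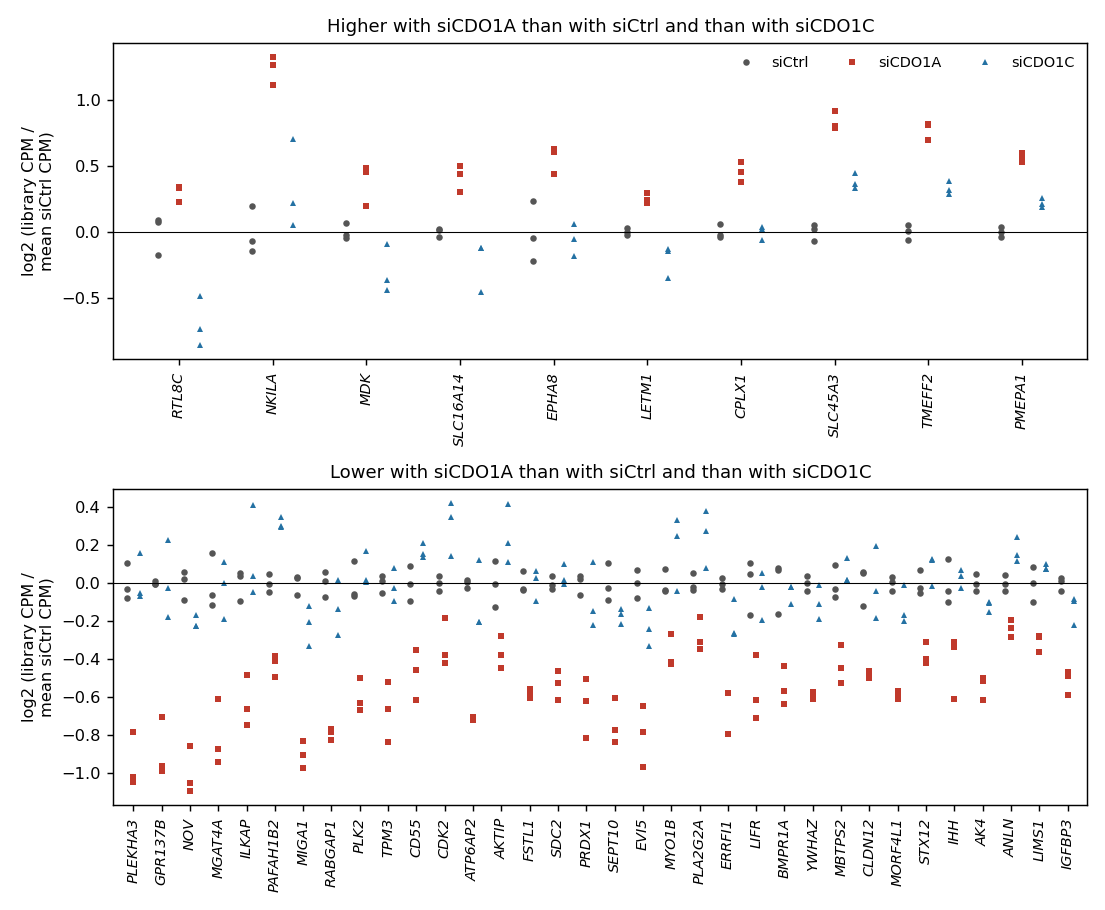
Log2 ratio of each library's CPM to the mean siCtrl CPM for the 10 genes higher (top) and the 34 lower (bottom) with siCDO1A than with both siCtrl and siCDO1C, with grey circles for siCtrl, red squares for siCDO1A and blue triangles for siCDO1C, 3 libraries each. The siCDO1A libraries lie apart from both other groups in every gene, as all 44 genes show no overlap, and for most of the lower genes the siCDO1C libraries sit around the siCtrl line.

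What the changed genes share in sequence was read from their 3′ UTRs, as the share of short words. For each 7-base word the log2 fold changes of the genes holding it were averaged after a linear fit on 3′ UTR length and GC content, a description without a test, in 12938 genes with a 3′ UTR of at least 30 bases and 14469 words held by at least 200 genes. At the high end of siCDO1A minus siCtrl stood GCAGTAC (660 genes, mean residual 0.16), and next CAGTACA (1193 genes, 0.07), which overlaps it by 6 bases. GCAGTAC was held by 14.8% of the genes called higher, 4.18% of those called lower and 5.10% of all. Its mean with siCDO1C against the same controls was 0.16, and in the direct comparison 0.01. Both means against siCtrl use the same control libraries, and the part of the control siRNA in them was not tested. At the low end stood CGGTTTA (207 genes, -0.06), TGAGTCG (254 genes, -0.06) and TCTCGTC (290 genes, -0.05), words with a CG that few genes hold, with -0.06, -0.05 and -0.04 with siCDO1C.

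Of the 12 largest rises 9 held GCAGTAC in the 3′ UTR and none of the 12 largest falls did. The word and the genes were both chosen on the fold change of siCDO1A minus siCtrl, so this count is a description. The sites of 5 of them are shown because they stand in the genes that rose most, with the word in capitals and 25 bases in all, read 5′ to 3′ from GENCODE transcripts matched by gene identifier, with the start of the word counted from the first base of the 3′ UTR.
CHPF (ENST00000243776, base 268 of 429): cgtatttatGCAGTACagtctgcct
HIPK3 (ENST00000303296, base 1162 of 3455): ttttacattGCAGTACttgttttgc
ELN (ENST00000252034, base 852 of 1207): tccccacatGCAGTACtgtataccc
EDA (ENST00000374552, base 948 of 3863): atttattaaGCAGTACaaatgtttt
ELAVL2 (ENST00000397312, base 602 of 2453): tttcgtaaaGCAGTACcttgccaaa
CHPF lies at chr2:219538947-219543787, HIPK3 at chr11:33256672-33357023 and ELN at chr7:74027789-74069907 in hg38, and the bases around the word differ from gene to gene.

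In the direct comparison of siCDO1A with siCDO1C words held by at least 1000 genes were ranked, a limit chosen after the data were seen. Of these 9636 words the highest were ACATCAA (1327 genes, mean residual 0.05 in the direct comparison, 0.01 with siCDO1A and -0.04 with siCDO1C against siCtrl) and CATCAAA (1655 genes, 0.03, -0.01 and -0.04), which overlap by 6 bases. The lowest was GTAAAAC (1714 genes, mean residual -0.03 in the direct comparison, -0.03 with siCDO1A and 0.01 with siCDO1C against siCtrl) and the next AAGGTTC (1071 genes, -0.03, -0.03 and 0.00). Among all 14469 words GTAAAAC and AAGGTTC ranked 5th and 14th from the low end in the direct comparison. For siCDO1A minus siCtrl they ranked 139th and 182nd. There GACACAT and ATCTGTC (-0.03 each) stood lowest among the words held by at least 1000 genes. They were held by 16.2% and 18.9% of the genes called lower, against 9.89% and 11.7% of all. Without siCDO1A replicate 3 the direct means were -0.03 for GTAAAAC and AAGGTTC. The means are small, but the words were unevenly spread: GTAAAAC was held by 20 of the 34 lower genes particular to siCDO1A (58.8%), by 29.5% of all genes called lower with siCDO1A, by 8.48% of those called higher and by 13.2% of all. Per kilobase of 3′ UTR it occurred 0.31, 0.13, 0.06 and 0.08 times in these sets. AAGGTTC was held by 9 of the 34 (26.5%), by 16.4% of the lower, 6.26% of the higher and 8.28% of all genes. Together 26 of the 34 (76.5%) held at least 1 of the 2 words, against 39.5% of all genes called lower and 19.4% of all genes. Of the 9 higher particular genes with a 3′ UTR 1 did. The median 3′ UTR length was 1629 bases in the 34 and 1354 in all genes, and the shares of genes are not corrected for it. Since the words were chosen on the comparison that also chose the 34 genes, these shares are a description.

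Genes with both words lay lowest on average. Both words were chosen for their low means in the direct comparison, so low means of the genes holding them follow from that choice. The mean residual of siCDO1A minus siCDO1C was 0.01 in 10422 genes with neither word, -0.03 in 1445 genes with GTAAAAC alone, -0.02 in 802 genes with AAGGTTC alone and -0.04 in 269 genes with both. The share called lower with siCDO1A was 6.38%, 17.6%, 13.7% and 26.0% in the same order, not corrected for 3′ UTR length as the means are, and the mean with siCDO1C against siCtrl was at most 0.01 in each. Sites from 10 of the 34 genes are printed to show where the words stand, those of the 6 largest direct falls with GTAAAAC and the 4 largest with AAGGTTC alone, with the word again in capitals.
PLEKHA3 (ENST00000234453, base 115 of 12576): tagaatgttGTAAAACagacaaaca
MIGA1 (ENST00000370791, base 1669 of 4476): ccctggaatGTAAAACaaaaatatt
TPM3 (ENST00000651641, base 5289 of 6124): agcatcagaGTAAAACatttgtccc
CD55 (ENST00000367064, base 525 of 1356): attttaaagGTAAAACatgctggtg
CDK2 (ENST00000266970, base 445 of 1164): gagaaccaaGTAAAACaaaaccact
ATP6AP2 (ENST00000636580, base 292 of 1093): gaaagaaatGTAAAACatttagaat
GPR137B (ENST00000366592, base 591 of 749): tttttttttAAGGTTCaggccgtag
MGAT4A (ENST00000393487, base 1693 of 6460): cgctggggcAAGGTTCcagctggct
ILKAP (ENST00000254654, base 42 of 134): ttgacttaaAAGGTTCattttgtgt
PAFAH1B2 (ENST00000527958, base 425 of 3346): aatttttttAAGGTTCataatttag
TPM3 holds both words. PLEKHA3, MIGA1, CD55, CDK2 and ATP6AP2 hold only GTAAAAC, and GPR137B, MGAT4A, ILKAP and PAFAH1B2 only AAGGTTC.

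Both words also occur, on opposite strands, in a single short stretch of the 3′ UTR of CDO1 (chr5:115804733-115816954, minus strand, hg38). The stretch of 19 bases starts at base 20 of the 700-base 3′ UTR of ENST00000250535 and is shown on both strands, with the reverse complement of GTAAAAC and the word AAGGTTC in capitals on the first line, and with their complements on the second.
CDO1 messenger strand: gGTTTTACtttAAGGTTCg
CDO1 complementary strand: cGAACCTTaaaGTAAAACc
AAGGTTC stands near the 3′ end of the messenger strand and GTAAAAC near the 3′ end of the complementary strand. The stretch was cut to take in both words and a single base on each side. Both words were picked from these data, and the share of other 3′ UTRs that hold them in this way is not given here. The sequence of siCDO1A is not given in the sources used here, and whether this stretch is its target was not tested.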

How the data were processed

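RNA of 9 VCaP samples was sequenced by a service provider as directional poly-A libraries, paired-end. The submitters' processing notes name CASAVA, HISAT2 2.0.5 and the build hg38, and per the study's methods featureCounts assigned reads to genes. The table deposited by the authors holds raw read counts per gene, whole numbers that were not normalized. Its settings for strand and for reads with several matches are not given in the sources used here. The table also holds 3 count columns that match no sample used here, and they were not used.

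Columns were mapped to samples by name. The members of the comparison and the gene lists were chosen with earlier results of these data known. Genes passed filterByExpr of edgeR 4.0.16 (R 4.3.3, minimum count 10) over the 9 libraries, and each pair of groups was fitted on its own 6 libraries with TMM scaling and the robust quasi-likelihood test, Benjamini-Hochberg adjusted over all 15555 genes. A gene was called at an adjusted p of at most 0.05, two-sided. The ± values of log2 fold changes are SEs of that fit, on 3 samples a group. On simulated data of the same size the fit called 78% of genes changed by a log2 of 1 and 63% of those changed by 0.5, with 6 false calls. In the simulation 100 genes were changed by each amount, and genes varied independently, without a trend shared across a library. The 6 false calls therefore do not give the error rate of the calls in the real libraries.

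Genes were named by a rule: CDO1, the 12 largest rises and falls among called protein-coding genes of at least 5 CPM without overlap, up to 10 particular genes a direction, up to 4 called members a list with the smallest p, and the 5 called genes a direction with the highest siCtrl level. Other genes are named after their values were seen, and so were the transcription factor families, taken from the deposited annotation. The 30 function lists and 6 marker lists held 1146 symbols, 1142 of them in the table. Values of 5 genes are not reported here, though they stay in the counts.

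The labels give each replicate number as a batch, so the numbers pair the samples. The deviations of same-numbered siCtrl and siCDO1A libraries from their group means correlated at -0.20, -0.09 and -0.37 over 11332 genes for batches 1, 2 and 3. Alternatives were DESeq2 1.42.0, other scaling and filters, offsets for GC content and length, the batch block, 1 fit of all 9 libraries, an adjusted p of 0.01 and leaving out each library.

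The given reference genome was of another build, so no sequence was read by coordinates. 3′ UTRs were taken from GENCODE 44 transcripts by gene identifier, 1 transcript a gene, which departs from the plan to use a genome of the files' build. Per-library totals were 12061295 to 16073698 counts, where 3 counts correspond to 0.187 to 0.249 CPM.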

Additional observations from a re-analysis of the deposited data

How the results depend on the processing

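No alternative turned the direction of CDO1 or of the 151 named genes, and CDO1 was called in each. The named genes were chosen as called in the main fit, which nearly fixes their direction. Of the main counts of 1146 higher and 1163 lower genes, 1 fit of all 9 libraries gave 673 and 696, the replicate block 652 and 706, and an adjusted p of at most 0.01 514 and 593. Leaving out 1 library gave from 604 (without siCtrl replicate 2) to 1736 (without siCDO1A replicate 3) higher and from 688 to 1718 lower genes. The 10 higher and 34 lower genes particular to siCDO1A became 21 and 63 with no filter on low counts, 26 and 74 with offsets for GC content and length, 42 and 99 with those offsets and the replicate block, and 1 and 13 at an adjusted p of at most 0.01. One fit of all 9 libraries gave 57 lower. Leaving out 1 library gave from 0 (without siCDO1A replicate 2) to 57 (without siCDO1C replicate 2) higher and from 10 to 148 lower. The 1744 genes called with siCDO1A and not with siCDO1C became 777 in the fit of all 9 libraries, 942 with the block, 903 at an adjusted p of at most 0.01, and 878 to 2881 when 1 library was left out. The fits with fewer libraries test fewer samples, and the cause of the other shifts was not tested. Of the 151 named genes 43 lost the call under at least 1 alternative, in 196 of 2399 values. The block changed no call of a named gene other than the 20 it removed. The list median kept its sign in 27 of 30 lists, the exceptions being the NRF2, histone and mitochondrial genome lists. Depth limits calls among genes of few counts, where 3 counts in a library are 0.187 to 0.249 CPM.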
